A study of Mus musculus with 6 samples.

Results

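The core clock loop genes are the 10 genes Arntl (also written Bmal1), Clock, Npas2, Per1, Per2, Per3, Cry1, Cry2, Nr1d1 and Nr1d2. They were found on the arrays by probe, each probe having to carry a RefSeq transcript accession of a member. This gave 10 of 55681 non-control probes, 1 for each gene. Of the 10 genes, 8 were bright enough to be tested, among 20869 genes and transcripts tested in all. Npas2 and Cry1 were not.

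The levels come from 6 single-colour Agilent arrays of mouse RNA, 2 in each of 3 groups, and the labels name the tissue as gastrocnemius muscle. MDX_JJ101 held MDX mice, the strain that lacks functional dystrophin, on the bioceramic water JJ101. The MDX_tap group was MDX mice given tap water, and the B10_tap group was wild-type C57BL/10 mice given the same. All groups had been on their water for 10 months. The labels give neither the age nor the sex of the mice nor the time of day of collection, and whether the 2 replicates of a group are different animals is not stated. The p-values therefore measure the spread between these samples, which may be technical.

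The circadian clock of mammalian cells is a transcription loop. ARNTL pairs with CLOCK, or with its relative NPAS2, and the pair binds E-boxes to switch on the Per, Cry and Rev-erb genes. PER and CRY proteins return to the nucleus and inhibit the pair, and the Rev-erb receptors (Nr1d1 and Nr1d2) repress Arntl through RORE elements, which ROR receptors activate. In mouse tissues with a running clock, Arntl transcript is therefore high when Nr1d1 and Per transcripts are low and the reverse. A set of samples taken at another time of day can then show activators and repressors displaced in opposite directions, but need not. Skeletal muscle and heart both carry such a clock.

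Stretches of promoter are shown for the members that hold a letter match to a clock element, because these elements are how the loop's arms are wired to each other. The sequences are RefSeq's, of build GRCm38.p6, from a table that gives 250 bases before to 50 after a start site. It held 13 entries for 9 of the 10 genes. All are printed 5′ to 3′ on the gene's strand, with the matched letters in capitals. All motifs were searched on both strands. The E-box was searched as CACGTG. A variant E-box was searched as CACGTT, which reads AACGTG on the other strand. RORE cores, where Rev-erb and ROR receptors bind, were searched as TAGGTCA and as TGGGTCA. D-boxes, the sites of the PAR-bZIP factors, were searched as TTATGTAA and as TTACGTAA. The cAMP element was searched as TGACGTCA. No matches overlapped in the stretches shown.
Per1, chr11:69098736-69098835, plus strand, E-box: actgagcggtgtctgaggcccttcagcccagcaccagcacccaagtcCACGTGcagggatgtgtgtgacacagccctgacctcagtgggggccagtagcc
Cry1, chr10:85185062-85185161, minus strand, variant E-box and E-box: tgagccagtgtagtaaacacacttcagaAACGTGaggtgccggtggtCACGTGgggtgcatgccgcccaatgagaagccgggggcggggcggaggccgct
Cry2, chr2:92434183-92434282, minus strand, variant E-box: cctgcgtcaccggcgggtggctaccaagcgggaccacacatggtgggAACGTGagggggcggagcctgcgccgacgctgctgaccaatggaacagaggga
Nr1d1, chr11:98775378-98775477, minus strand, variant E-box: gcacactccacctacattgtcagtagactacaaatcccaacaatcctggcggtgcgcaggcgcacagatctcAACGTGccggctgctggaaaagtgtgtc
Per3, chr4:151044784-151044903, minus strand, D-box at both places: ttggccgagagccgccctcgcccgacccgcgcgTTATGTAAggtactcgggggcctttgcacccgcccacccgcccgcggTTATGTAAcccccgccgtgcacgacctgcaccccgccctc
Arntl, chr7:113207529-113207558, plus strand, RORE core: gaaggcagaaagTAGGTCAgggacggaggt

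An E-box was present in 2 of the 9 core genes with a promoter entry (Per1 and Cry1). By entry this was 2 of 13, against 7.15% of all 32851 promoter entries. A variant E-box was present in 3 genes (Cry1, Cry2 and Nr1d1), 3 of the 13 entries, against 4.68%. The RORE core was present in Arntl, in 1 of the 13 entries, against 6.45%, and began 30 bases after the start. The D-box was present in Per3, in 1 of the 13 entries, against 1.06%. The cAMP element was present in 0 of the 13, against 1.79%. These matches describe the letters in this window and are not binding sites, and members without a match may carry the elements outside it.

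Between 42.5% and 51.6% of the 59305 non-control spots of an array were well above background, lowest in MDX_JJ101, and the replicates of a group correlated at 0.989 to 0.995. All arrays lay on 1 slide in 1 scan, with MDX_JJ101 alone in slide row 2, so that slide row and JJ101 cannot be told apart. MDX_JJ101 and MDX_tap both lay in columns 3 and 4 and B10_tap in columns 1 and 2, so slide column cannot be told apart from genotype on tap water. The dystrophin gene Dmd stood at -1.62 ± 0.17, -0.55 ± 0.41 and 1.06 ± 0.00034 in MDX_JJ101, MDX_tap and B10_tap (log2 level, SD, n = 2 each), so the MDX arrays lay below the B10_tap arrays. The muscle label went against its markers: 14 of 15 heart markers were well above background on all arrays, and 10 of 20 limb muscle markers on none, the myogenic factor gene Myod1 among them. Limb fibre and fat markers differed with JJ101. Myh4, a fast skeletal myosin gene, was well above background on both MDX_tap and both B10_tap arrays and on neither MDX_JJ101 array, as was the fat hormone gene Adipoq. In MDX_JJ101 against MDX_tap, 6 of 10 tested limb markers were called lower and 2 higher, where 16.1% and 19.9% of all genes were. Only 3 limb markers were well above background on all arrays. A marker dim in MDX_JJ101 could be tested only through a tap group where it was brighter, so the count of lower markers is no separate result. Marker signals were also summed, without scaling between arrays. The summed signal of 19 limb muscle markers (the 20 without Myh8, which set the sum) ran from 379.7 to 431.8 in MDX_JJ101, from 953.2 to 3953 in MDX_tap and from 2042 to 2489 in B10_tap. Over all 20, Myh8 included, the sum was instead highest in MDX_JJ101. It ran from 80912 to 91163 there, from 66787 to 72200 in MDX_tap and from 71162 to 75398 in B10_tap. The sum of 7 fat cell markers ran from 54.6 to 231.2, from 838.3 to 983.4 and from 489.9 to 667.2 in the same order. These shifts accompany every clock difference that involves MDX_JJ101 below, and their part in it was not tested. In bulk RNA, fewer cells of a type and less RNA per cell cannot be told apart.

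**Figure D1:**
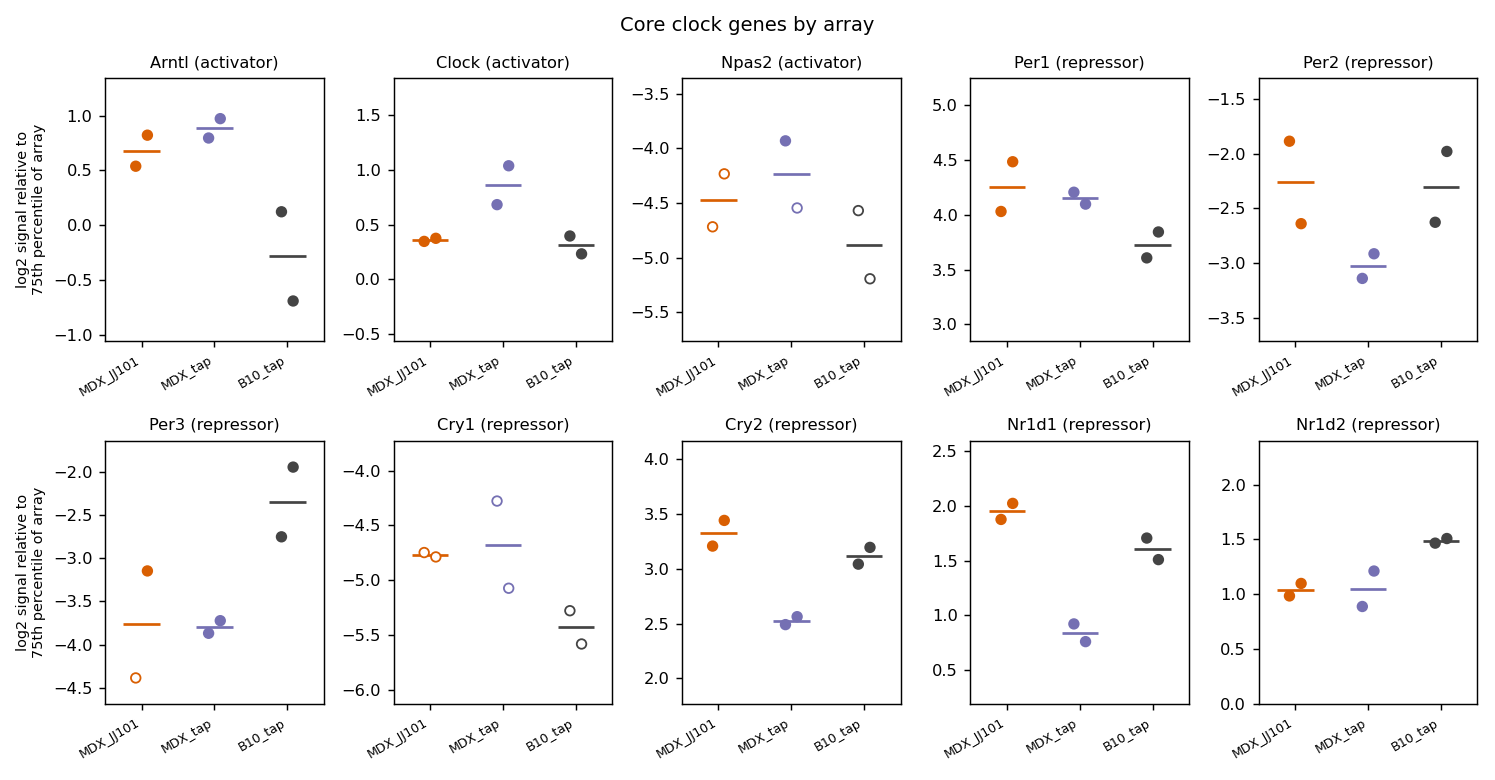
Level of each of the 10 core clock genes by array, as log2 signal relative to the array's 75th percentile, in MDX_JJ101, MDX_tap and B10_tap. Each point is an array, lines are means of 2 arrays, open points were not well above background, and each panel has its own range. Nr1d1 and Cry2 are lowest in both MDX_tap arrays, and Arntl is lowest in both B10_tap arrays.

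Each level is a log2 signal minus that of its array's 75th percentile over non-control spots, and differences are log2 differences between group means from limma's moderated test. They are adjusted over all 20869 genes by Benjamini-Hochberg, and a gene was called at an adjusted p under 0.05. Levels of different genes come from different probes and are not set against each other.

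Arntl, the activator without which the loop stops, had levels of 0.54 and 0.82 in MDX_JJ101, 0.79 and 0.97 in MDX_tap, and 0.12 and -0.69 in B10_tap. The MDX arrays of either water overlapped each other, and all 4 lay above both B10_tap arrays, which themselves were far apart (SD 0.58, n = 2). The difference was 1.17 (SE 0.29, 2.25-fold, adjusted p = 0.141) for MDX_tap against B10_tap. For MDX_JJ101 against B10_tap it was 0.97 (SE 0.29, adjusted p = 0.0536), and for MDX_JJ101 against MDX_tap -0.20 (SE 0.29, adjusted p = 0.597). None of these passed.

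Clock, which encodes ARNTL's main partner, had levels of 0.35 and 0.38 in MDX_JJ101, 0.68 and 1.04 in MDX_tap, and 0.40 and 0.23 in B10_tap. Both MDX_tap arrays lay above all others, and the other groups overlapped. It stood at 0.55 (SE 0.15, adjusted p = 0.159) in MDX_tap against B10_tap and at -0.50 (SE 0.15, adjusted p = 0.0536) in MDX_JJ101 against MDX_tap. MDX_JJ101 and B10_tap differed by 0.046 (SE 0.15, adjusted p = 0.827).

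Npas2, the partner that can replace CLOCK, was well above background on 1 array, MDX_tap replicate 1, with a level of -3.93. Its readings were -4.72 and -4.23 in MDX_JJ101, -4.55 in the other MDX_tap array, and -4.57 and -5.19 in B10_tap. It was not tested, and no fold is given.

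Per1, the Period gene that also answers directly to stress hormones and to cAMP, had levels of 4.03 and 4.48 in MDX_JJ101, 4.21 and 4.10 in MDX_tap, and 3.61 and 3.84 in B10_tap. All MDX arrays lay above the B10_tap arrays, and the MDX groups overlapped. Per1 was the only tested repressor whose difference had the sign of the activators in MDX_tap against B10_tap, at 0.43 (SE 0.19, adjusted p = 0.267). It stood at 0.53 (SE 0.19, adjusted p = 0.0784) in MDX_JJ101 against B10_tap and at 0.11 (SE 0.19, adjusted p = 0.673) in MDX_JJ101 against MDX_tap. This last sign turned to negative with normexp and quantile normalization, with spike-in scaling and in the authors' table.

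Per2, a Period gene of the central negative limb, had levels of -1.89 and -2.64 in MDX_JJ101, -3.14 and -2.91 in MDX_tap, and -2.63 and -1.98 in B10_tap. Both MDX_tap arrays were the lowest, and the other groups overlapped. Its differences were -0.72 (SE 0.33, adjusted p = 0.281) in MDX_tap against B10_tap and 0.76 (SE 0.33, adjusted p = 0.122) in MDX_JJ101 against MDX_tap. They were smaller, at -0.26 and 0.34, with normexp and quantile normalization.

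Per3, the Period gene with an output role in mice, was dim. It had levels of -4.38 and -3.15 in MDX_JJ101, of which the first was not well above background, -3.87 and -3.72 in MDX_tap, and -2.75 and -1.95 in B10_tap. Both B10_tap arrays lay above all MDX arrays. The differences were -1.44 (SE 0.47, 2.72-fold lower, adjusted p = 0.186) in MDX_tap against B10_tap and -1.42 (SE 0.47, adjusted p = 0.0694) in MDX_JJ101 against B10_tap. Both were smaller under other processing, at -0.37 and -0.32 with normexp and quantile normalization and -0.47 and -0.45 in the authors' table. The MDX groups differed by 0.029 (SE 0.47, adjusted p = 0.965), with their arrays interleaved.

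Cry2, a cryptochrome that blocks the ARNTL and CLOCK pair, had levels of 3.21 and 3.44 in MDX_JJ101, 2.49 and 2.56 in MDX_tap, and 3.04 and 3.20 in B10_tap. Both MDX_tap arrays lay below all others. Cry2 rose by 0.80 in MDX_JJ101 against MDX_tap (SE 0.13, 1.74-fold, adjusted p = 0.0145). It stood at -0.59 (SE 0.13, adjusted p = 0.12) in MDX_tap against B10_tap and at 0.21 (SE 0.13, adjusted p = 0.251) in MDX_JJ101 against B10_tap. Its relative Cry1 was well above background on no array, with readings between -5.58 and -4.28, so no change in it could be measured.

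Nr1d1, which encodes the Rev-erb alpha receptor that represses Arntl, had levels of 1.88 and 2.02 in MDX_JJ101, 0.92 and 0.76 in MDX_tap, and 1.71 and 1.51 in B10_tap. The 3 groups did not overlap. Nr1d1 rose by 1.11 in MDX_JJ101 against MDX_tap (SE 0.13, 2.16-fold, adjusted p = 0.0128), and this difference lay above those of 98.6% of all genes. It stood at -0.77 (SE 0.13, 1.70-fold lower, adjusted p = 0.0976) in MDX_tap against B10_tap and at 0.34 (SE 0.13, adjusted p = 0.0929) in MDX_JJ101 against B10_tap. Nr1d2, the Rev-erb beta gene, had levels of 0.98 and 1.1 in MDX_JJ101, 0.89 and 1.21 in MDX_tap, and 1.47 and 1.51 in B10_tap. Its MDX arrays overlapped each other and lay below the B10_tap arrays, at -0.44 (SE 0.14, adjusted p = 0.184) for MDX_tap and -0.45 (SE 0.14, adjusted p = 0.0609) for MDX_JJ101. Between the MDX groups it differed by -0.0085 (SE 0.14, adjusted p = 0.967).

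**Figure D2:**
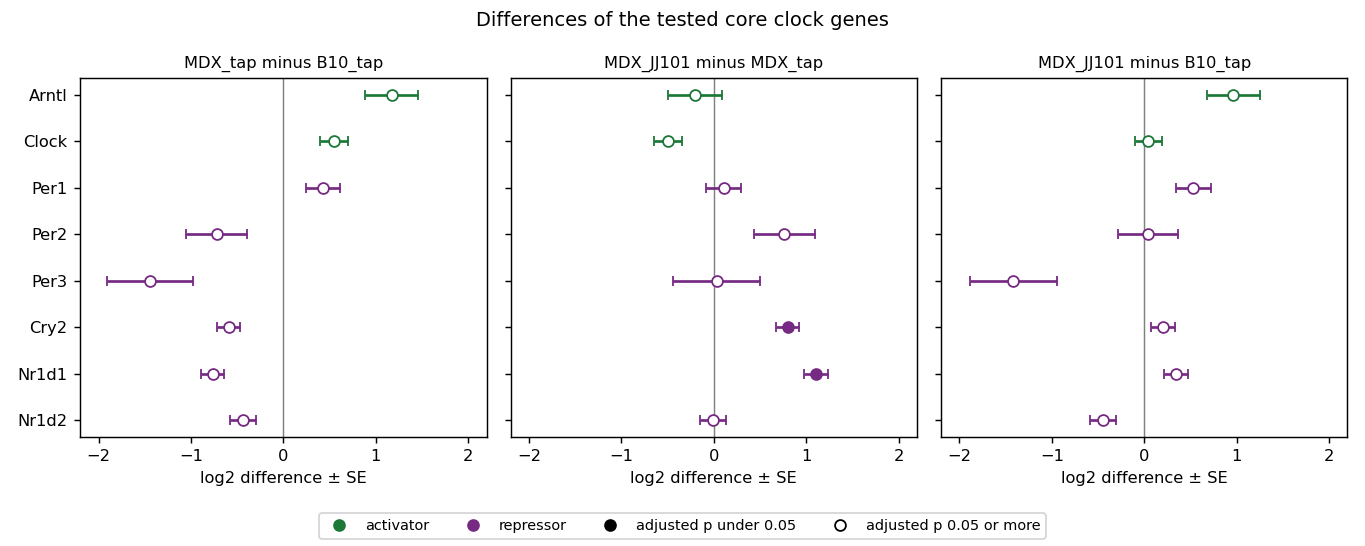
Log2 difference with its standard error for the 8 tested core clock genes in each comparison, activators in green and repressors in purple. Filled points have an adjusted p under 0.05. The 2 filled points are Cry2 at 0.80 and Nr1d1 at 1.11 in MDX_JJ101 minus MDX_tap.

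The first comparison asked how MDX muscle differed from wild-type muscle on the same tap water. Both measured activators had higher means in MDX_tap and 5 of the 6 measured repressors (Per2, Per3, Cry2, Nr1d1 and Nr1d2) had lower ones, with Per1 the exception. The sizes ran from -1.44 for Per3 to 1.17 for Arntl, though with normexp and quantile normalization and in the authors' table Nr1d1 (-0.73 and -0.75) and Cry2 (-0.55 in each) were more negative than Per3. By limma's adjusted p, 0 of the 8 tested genes passed, where 0.024% of all genes did, 5 lower and 0 higher. At an unadjusted p under 0.05 the shares were 6 of 8 core clock genes and 21% of all genes. The arrays of both groups did not overlap in any of the 8, a pattern shared by 61.4% of all genes. The median difference of the 8 was -0.52, against -0.060 for all genes tested.

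Some settings called single repressors in MDX_tap against B10_tap. Nr1d1 passed with normexp and quantile normalization (-0.73, adjusted p = 0.0194), in the authors' table (-0.75, 0.0254) and with a mean-variance trend (-0.77, 0.0377). Cry2 passed with the first of these (-0.55, 0.04), and Per3 with spike-in scaling (-1.47, 0.0153). With spike-in scaling the test gave each of the 8 genes the same SE of 0.40, so a gene's own spread did not enter its p. The 8 signs were the same under every alternative run, though the slide column block cannot separate column from genotype here and is no check on column. Of the genes called over all, 0 of 5 were higher as reported, 242 of 285 with median centring and 204 of 413 with spike-in scaling.

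The second comparison asked what JJ101 water did in MDX mice. The repressor genes Nr1d1 and Cry2 rose, 2.16-fold and 1.74-fold, and no core clock gene passed in the other direction as reported. So 2 of 8 tested genes were called higher, where 19.9% of all genes were, and 0 of 8 lower, where 16.1% were. In either direction 36.1% of all genes passed, so the share of core clock genes called is no higher than the background. At an unadjusted p under 0.05 the shares were 3 of 8 core clock genes (Clock with these) and 49.7% of all genes. Clock at -0.50 and Per2 at 0.76 had arrays that lay apart without passing, and Arntl, Per1, Per3 and Nr1d2 had overlapping arrays, so that 4 of 8 lay apart, where 72.7% of all genes did. The median difference of the 8 was 0.068, against 0.00086 for all genes.

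MDX_JJ101 and MDX_tap shared slide columns, so the difference can be read within each. Column 3 held replicate 1 of both groups and column 4 replicate 2, so the columns pair these arrays as the replicate numbers do. Nr1d1 differed by 0.95 in column 3 and 1.26 in column 4, and Cry2 by 0.72 and 0.88. With the column as a block, which leaves 1 residual degree of freedom, no gene of the array passed (0 of 20869, with 8857 at an unadjusted p under 0.05) and the adjusted p was 0.0578 for Nr1d1 and 0.0579 for Cry2. Both calls also ended without MDX_tap replicate 2 (adjusted p = 0.0519 and 0.0542), and that of Cry2 without MDX_tap replicate 1 (0.0596). Both ended with spike-in scaling, at 0.67 (adjusted p = 0.25) and 0.36 (0.594), where the median of all genes shifted by -0.43. The SE of both genes there was the shared 0.40, against 0.13 as reported. Other settings added calls. Clock fell with normexp and quantile normalization (-0.54, adjusted p = 0.0152), in the authors' table (-0.58, 0.0177), with genes above background on all arrays (-0.50, 0.0321) and with a mean-variance trend (-0.50, 0.0289). Per2 rose with median centring (0.99, 0.0335) and in the authors' table (0.44, 0.0482). The median shifted by 0.23 with median centring. Over all genes, 4160 of 7529 called were higher as reported, 78 of 3771 with spike-in scaling and 5692 of 7590 with median centring.

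The third comparison set JJ101-fed MDX mice against wild-type mice on tap water. Arntl had a higher mean in MDX_JJ101 by 0.97 (1.95-fold), and Per3 and Nr1d2 had lower means by fitted differences of -1.42 and -0.45, while Per1 and Nr1d1 stood at 0.53 and 0.34 and Clock, Per2 and Cry2 at 0.21 or less. With spike-in scaling the signs of Nr1d1, Clock, Per2 and Cry2 turned to negative. Of the 8 genes 0 passed, where 33.6% of all genes did (16.2% higher and 17.4% lower), and 5 had an unadjusted p under 0.05, where 47.9% of all genes did. The arrays lay apart in 6 of 8, where they did in 75.2% of all genes. Several adjusted p-values lay close to the threshold. Arntl passed with normexp and quantile normalization, median centring, the authors' table, a mean-variance trend and genes above background on all arrays (adjusted p from 0.0172 to 0.0316). Nr1d2 passed with these except median centring, and with only the 2 groups (lowest adjusted p = 0.0122). Per3 passed with the replicate number as a block (adjusted p = 0.0352), a mean-variance trend (0.0441) and spike-in scaling (-1.88, 4.93e-05). The last p used the SE of 0.40 shared by the 8 genes and not the spread of Per3, which was dim. Without MDX_JJ101 replicate 2 Per3 stood at -2.03. Per1 passed with median centring (0.93, 0.0209), a trend (0.0318) and without MDX_JJ101 replicate 1 (0.76, 0.0314), and Cry2 and Nr1d1 with median centring (0.61, 0.0343 and 0.74, 0.0204). Nr1d2 was -0.046 with median centring. Over all genes, 3376 of 7008 called were higher as reported, 8457 of 10102 with median centring and 105 of 4448 with spike-in scaling, and the median shifted by 0.39 and -0.47.

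Because each array's scaling adds the same amount to every gene, the gap between activators and repressors on an array does not depend on it. Each gene was taken as its deviation from its own mean over the 6 arrays, and the mean deviation of the 6 repressors was subtracted from that of Arntl and Clock. This gap was -0.021 and -0.10 in MDX_JJ101, 0.66 and 0.85 in MDX_tap, and -0.31 and -1.08 in B10_tap. MDX_tap was highest, B10_tap lowest and MDX_JJ101 between them, with no overlap between groups. The narrower gap of Arntl over Nr1d1 had the same order, at -0.30 and -0.16 in MDX_JJ101, 0.91 and 1.25 in MDX_tap, and -0.54 and -1.16 in B10_tap. The group means of the wider gap were -0.11, 0.55 and -0.45 with normexp and quantile normalization, and -0.11, 0.59 and -0.48 in the authors' table, for the same groups in that order. No test is given for this summary.

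Time of collection is not given in the sources used here, so the phase at which each group was taken cannot be told apart from its genotype and water, and its part in this gap was not tested. Members of a role did not all have the same sign or size. In MDX_JJ101 against MDX_tap, Nr1d1 passed at 1.11, while Per1 (0.11), Per3 (0.029) and Nr1d2 (-0.0085) had overlapping arrays. The signs of these last genes turned under some alternatives. In the comparisons with B10_tap, none of the differences named next passed as reported. Per1 had the sign of the activators in MDX_tap against B10_tap. In MDX_JJ101 against B10_tap, Nr1d1 was positive (negative with spike-in scaling, at -0.12) and Nr1d2 negative. Comparisons that share the MDX_tap arrays tend to opposite signs by construction, so the values of each are given on their own.

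**Figure D3:**
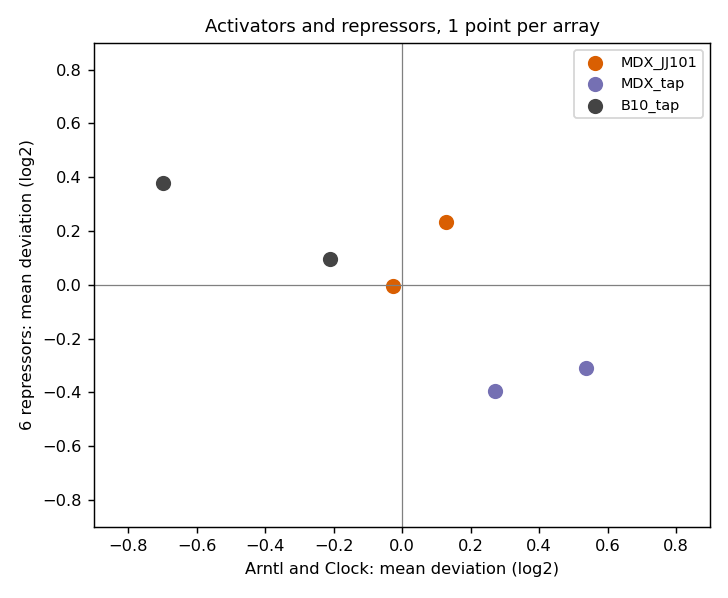
Mean deviation of Arntl and Clock from their means over the 6 arrays (x axis, log2) against that of the 6 tested repressor genes (y axis, log2), with 1 point per array. Both MDX_tap arrays lie at the lower right, with activators at 0.27 and 0.54 and repressors at -0.39 and -0.31, and both B10_tap arrays at the upper left.

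Genes read directly by the clock were described from a list of 7 output regulators, chosen with earlier results of these data known. Dbp, Tef and Hlf encode the PAR-bZIP factors that bind D-boxes, Nfil3 encodes their repressor, Ciart and Bhlhe41 encode repressors of the ARNTL and CLOCK pair, and Bhlhe40 is the relative of Bhlhe41. In MDX_JJ101 against MDX_tap, 5 of the 7 rose (Dbp, Tef, Hlf, Ciart and Bhlhe41) and 0 fell, where 19.9% of all genes rose and 16.1% fell, with a median of 0.57. In MDX_tap against B10_tap 0 of 7 passed, with a median of -0.76, and in MDX_JJ101 against B10_tap 1 passed, Nfil3. With spike-in scaling, 1 of the 5 rises (Ciart, 1.14, adjusted p = 0.0287) and not that of Nfil3 (0.63, adjusted p = 0.286) still passed, and the median between the MDX groups was 0.14. With normexp and quantile normalization 4 rose, and in MDX_tap against B10_tap 1 rose and 2 fell.

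Dbp had levels of 5.62 and 5.62 in MDX_JJ101, 4.46 and 4.38 in MDX_tap, and 5.62 and 5.94 in B10_tap. It rose by 1.21 in MDX_JJ101 against MDX_tap (SE 0.14, adjusted p = 0.0128), and stood at -1.36 (SE 0.14, adjusted p = 0.0595) in MDX_tap against B10_tap. Ciart had levels of -1.69 and -1.47 in MDX_JJ101, -3.10 and -3.21 in MDX_tap, and -1.83 and -1.20 in B10_tap, and rose by 1.57 (SE 0.23, 2.98-fold, adjusted p = 0.0132) in MDX_JJ101 against MDX_tap. In both genes the MDX_tap arrays were the low ones and the other groups met or overlapped. The Ciart promoter, shown here as the richest in E-boxes among the output genes, holds the E-box letters at 3 places, and 3 of 6 output genes with an entry (Ciart, Bhlhe41 and Tef) held at least 1.
Ciart, chr3:95882246-95882365, minus strand, E-boxes: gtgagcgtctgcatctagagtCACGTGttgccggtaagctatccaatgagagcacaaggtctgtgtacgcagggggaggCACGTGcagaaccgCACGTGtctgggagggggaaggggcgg

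Tef rose by 0.88 (SE 0.18, adjusted p = 0.0208), Bhlhe41 by 0.57 (SE 0.091, adjusted p = 0.0145) and Hlf by 0.51 (SE 0.15, adjusted p = 0.0479) in MDX_JJ101 against MDX_tap. Nfil3, whose transcript runs opposite to Dbp in the mouse clock, had levels of 2.14 and 2.44 in MDX_JJ101, 1.91 and 1.85 in MDX_tap, and 1.20 and 1.21 in B10_tap. It was called higher in MDX_JJ101 than in B10_tap, by 1.09 (SE 0.13, 2.12-fold, adjusted p = 0.0104), and stood at 0.67 (SE 0.13, adjusted p = 0.108) in MDX_tap against B10_tap. Between the MDX groups Nfil3 was not called. Both its MDX_JJ101 arrays lay above both its MDX_tap arrays, the same direction as the rise of Dbp there. Bhlhe40 differed by -0.17 (adjusted p = 0.283) between the MDX groups.

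**Figure D4:**
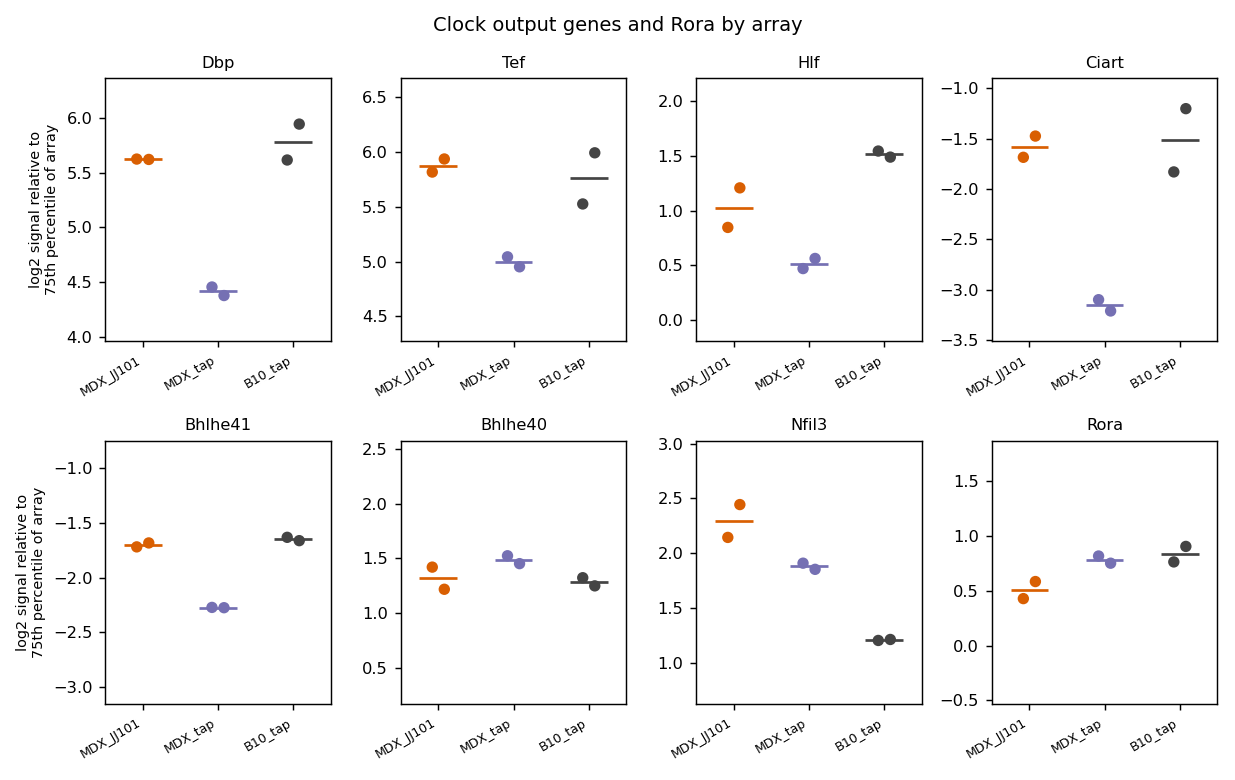
Levels of 7 clock output genes and Rora by array, as log2 signal relative to the array's 75th percentile, with lines at the means of 2 arrays and a range of its own in each panel. Dbp, Tef, Hlf, Ciart and Bhlhe41 are lowest in both MDX_tap arrays, and Nfil3 is lowest in both B10_tap arrays.

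Rora and Rorb encode receptors that activate Arntl at the elements where Rev-erb represses it. Rora had levels of 0.43 and 0.59 in MDX_JJ101, 0.82 and 0.75 in MDX_tap, and 0.76 and 0.90 in B10_tap. Both MDX_JJ101 arrays lay below all others. It stood at -0.28 (SE 0.11, adjusted p = 0.108) in MDX_JJ101 against MDX_tap and at -0.33 (SE 0.11, adjusted p = 0.0765) in MDX_JJ101 against B10_tap, and neither passed. Rorb differed by -0.054 (SE 0.28, adjusted p = 0.893) between the MDX groups, with overlapping arrays. In MDX_tap against B10_tap the differences were -0.050 for Rora and -0.062 for Rorb (adjusted p = 0.824 and 0.917). With median centring Rora turned to positive against B10_tap in either MDX group (0.072 for MDX_JJ101 and 0.12 for MDX_tap), and Rorb in all 3 comparisons. Of 3 tested ROR genes, 1 was called, and it was neither Rora nor Rorb. It was called higher in MDX_JJ101 by 0.64 against MDX_tap and by 0.55 against B10_tap, where 19.9% and 16.2% of all genes were. With spike-in scaling 0 of the 3 passed.

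Kinases, ubiquitin ligases and other genes that set the lifetime of clock proteins formed a list of 15, of which 14 were tested. In MDX_JJ101 against MDX_tap 6 were called higher and 1 lower (median 0.40), where 19.9% and 16.1% of all genes were. In MDX_JJ101 against B10_tap 5 were called higher and 1 lower (median 0.42), where 16.2% and 17.4% of all genes were, and in MDX_tap against B10_tap 0 passed (median 0.047). Csnk1d, whose kinase marks PER proteins for destruction, rose by 0.69 against MDX_tap (SE 0.11, adjusted p = 0.0149) and by 0.74 against B10_tap (adjusted p = 0.0136). Usp2, a deubiquitinase gene under clock control, rose by 1.01 against MDX_tap (SE 0.18, adjusted p = 0.0169). Csnk2b, a casein kinase 2 subunit, rose by 0.64 and Fbxw11, a ligase subunit that acts on PER proteins, by 0.43 in that comparison (adjusted p = 0.0213 and 0.0358). Between the MDX groups, 5 were higher and 4 lower with normexp and quantile normalization and 10 higher with median centring. With spike-in scaling 0 of the 14 passed there, the median was -0.038 and the sign of Fbxw11 turned to negative (-0.0060).

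Genes that answer to stress hormones or to handling also reach Per1, so their values are given beside it. Of 12 glucocorticoid-induced genes, 6 rose and 2 fell in MDX_JJ101 against MDX_tap (median 0.58), where 19.9% of all genes rose and 16.1% fell. Against B10_tap, 8 rose and 0 fell in MDX_JJ101 (median 1.03), where 16.2% of all genes rose and 17.4% fell. In MDX_tap against B10_tap 0 passed (median 0.74), but 5 rose with normexp and quantile normalization and in the authors' table, 2 with median centring and 3 with spike-in scaling. Fkbp5, a chaperone of the hormone receptor, was called higher in MDX_JJ101 by 0.99 against MDX_tap (adjusted p = 0.0209) and by 2.02 against B10_tap (adjusted p = 0.00897). The cell cycle inhibitor gene Cdkn1a was 2.29 higher in MDX_JJ101 than in B10_tap (adjusted p = 0.00646) and the metallothionein gene Mt2 2.56 higher (adjusted p = 0.0104), while the signalling inhibitor gene Errfi1 fell by 1.04 against MDX_tap (adjusted p = 0.0129). With spike-in scaling 1 rose and 1 fell in MDX_JJ101 against MDX_tap and 5 rose against B10_tap. Of 13 tested immediate early genes, 1 passed, Egr2, which fell by 1.70 in MDX_JJ101 against MDX_tap (adjusted p = 0.0359), and the medians were -0.72 there and 0.56 in MDX_tap against B10_tap. With spike-in scaling 7 of the 13 fell in MDX_JJ101 against MDX_tap and 3 rose in MDX_tap against B10_tap, and with normexp and quantile normalization 2 fell and 1 rose in these comparisons. The part of either response in the Per1 values was not tested.

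The summed signals of macrophage and fibroblast markers, not scaled between arrays, were highest in MDX_tap. Bright genes weigh most in such sums, and the 75th percentile signal of the arrays ran from 194.4 to 239.2. The macrophage and fibroblast sums ran from 21351 to 25241 and from 55471 to 92983 in MDX_JJ101, from 27400 to 39517 and from 162148 to 176471 in MDX_tap, and from 25035 to 25734 and from 104463 to 108389 in B10_tap. In MDX_tap against B10_tap, 0 of 10 macrophage and 0 of 8 fibroblast markers passed, where 0.024% of all genes did. With normexp and quantile normalization, 3 of the 8 fibroblast markers rose there. In MDX_JJ101 against MDX_tap, 6 of 10 macrophage markers fell and 1 rose, and 4 of 8 fibroblast markers fell (7 of 8 with normexp and quantile normalization), where 16.1% of all genes fell and 19.9% rose. Endothelial markers fell in 5 of 8, with sums from 13798 to 16974 in MDX_JJ101, from 21414 to 25862 in MDX_tap and from 23753 to 24269 in B10_tap. Of the heart markers 5 of 14 were called higher, against the 19.9% of all genes (0 of 14 with spike-in scaling, median -0.071), with sums from 1838213 to 2063498, from 1712379 to 1851741 and from 1871354 to 1888861 in the same order. The part of these shifts in the rise of Nr1d1 and Cry2 was not tested.

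Among 2531 named genes well above background on all arrays and spanning at least 1 log2 unit, those whose levels over the 6 arrays were most like Nr1d1 by Pearson correlation were Eef2k (0.996), Adamts7 (0.991), Gpsm1 (0.991), 0610040J01Rik (0.990), Mppe1 (0.990) and Actr3b (0.990). All 6 were called higher in MDX_JJ101 than in MDX_tap, by 0.87 to 1.18, where 19.9% of all genes were. This follows from their choice by likeness to Nr1d1, itself called higher there, and is no separate result. Among the members, Cry2 followed Nr1d1 most closely (0.950) and Clock was the most opposed (-0.84). Most like Arntl were Ptprf (0.960), Wdr92 (0.951), Smoc1 (0.940), Fam222a (0.939), Sh3pxd2b (0.926) and Ttyh1 (0.924), with Clock at 0.67 and Per3 at -0.80. With 6 points in 3 groups, a shared scaling and genes picked from many, these correlations describe the arrays and carry no test.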

How the data were processed

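Spot intensity was measured with Feature Extraction 11.5.1.1, per the submitters' processing notes. The deposited processed intensity is background-subtracted, with a surrogate value in dim spots, per the file headers, and the other deposited columns used were flags of 0 or 1. The authors' deposited series table holds log2 values that rank as the median spot signal does (Spearman correlation of 1), and it served as an alternative.

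From the intensities, log2 processed signal minus each array's 75th percentile was computed without outlier spots, and spots were averaged by probe. Probes were named through RefSeq accessions of a GRCm38.p6 gene table. Probes stayed in (27258 of 55681) where some group had both its arrays well above background, and a gene was read from its brightest probe. All groups entered a single limma 3.58.1 model under R 4.3.3, with 3 residual and 2.21 prior degrees of freedom. Each p is two-sided, the threshold was 0.05, and the procedure was tested on simulated data. Signal over background and the number of arrays limit the precision. Alternatives changed the background correction, scaling, filter, choice of probe, block, variance trend, outlier spots and arrays. The planned normexp correction used the median spot signal, as the files used here give no mean signal.

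The members and lists were chosen with earlier results of these data known. The text names the 10 members, all output genes, Rora and Rorb, up to 4 genes with the smallest p of each other list, and the 6 genes most like Arntl and Nr1d1. Dmd, Myod1 and Myh8 were named after their values were seen. Some results are not reported here.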

Additional observations from a re-analysis of the deposited data

How the results depend on the processing

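The 19 alternatives gave values for the 8 tested genes in 3 comparisons, of which 394 kept their sign and side of the threshold, 32 passed where the reported value had not, 7 no longer passed and 20 turned sign, all of these for uncalled values. These counts hold repeats, because leaving out an array of the group not compared gives the same values as only the 2 groups. They also hold the column block in the comparisons with B10_tap, where column and group cannot be separated. The cause of these changes was not tested. In MDX_JJ101 against MDX_tap, Per1 turned to -0.21 with normexp and quantile normalization, -0.33 with spike-in scaling and -0.21 in the authors' table. Arntl turned to 0.022 and Nr1d2 to 0.22 with median centring, and Per3 to -0.41 with spike-in scaling. In MDX_JJ101 against B10_tap, spike-in scaling turned Clock to -0.41, Per2 to -0.42, Cry2 to -0.26 and Nr1d1 to -0.12, and Clock was -0.12 with normexp and -0.14 in the authors' table.

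Of the 20 turned signs, 8 came from leaving out each array in turn. Between the MDX groups, Per1 ran from -0.12 (without MDX_JJ101 replicate 2) to 0.33 and Per3 from -0.59 (without that array, and -0.043 without MDX_tap replicate 1) to 0.65. Nr1d2 ran from -0.17 to 0.15, positive without MDX_tap replicate 2 or MDX_JJ101 replicate 1 (0.049). In MDX_JJ101 against B10_tap, Clock ran from -0.035 (without B10_tap replicate 2) to 0.13, and Per2 from -0.34 (without MDX_JJ101 replicate 1, and -0.28 without B10_tap replicate 1) to 0.42. A group left with 1 array was assumed to vary like the others.

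In MDX_tap against B10_tap, where 0 of 8 core clock genes passed, 2 did with normexp and quantile normalization and 1 each with spike-in scaling, the authors' table and a mean-variance trend. In MDX_JJ101 against MDX_tap, where 2 passed, 4 did in the authors' table and 0 with spike-in scaling or the slide column as a block. In MDX_JJ101 against B10_tap, where 0 passed, 4 did with median centring or a trend, 2 with normexp, the authors' table or genes above background on all 6 arrays, and 1 with spike-in scaling, only the 2 groups or the replicate block. Leaving out 1 array gave 0 to 0, 0 to 2 and 0 to 1 in these comparisons.

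Over all genes, MDX_tap against B10_tap had 5 calls, against 407 with normexp, 285 with median centring, 413 with spike-in scaling and 348 in the authors' table. It had 0 without a filter (5113 at an unadjusted p under 0.05), 151 with genes above background on all arrays and 15 with every probe. With only the 2 groups it had 125, and with a trend 316. MDX_JJ101 against MDX_tap had 7529, against 3771 with spike-in scaling, 13640 without a filter, 3247 with only the 2 groups, 0 with the column block and 48 to 7701 without 1 array. MDX_JJ101 against B10_tap had 7008, against 4448 with spike-in scaling, 14092 without a filter, 0 with the column block (6597 unadjusted) and 76 to 6908 without 1 array.

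The replicate numbers gave correlations of deviations of -0.031, 0.16 and -0.064 for the comparisons in the same order. Deviations were thus little shared by number, although between the MDX groups the numbers follow the slide columns. Between the MDX groups, the replicate block pairs the same arrays as the slide column block, which differs in how the B10_tap arrays enter. With the replicate block, Nr1d1 and Cry2 kept their calls in MDX_JJ101 against MDX_tap (adjusted p = 0.0251 each), and 4, 6517 and 5863 genes were called over all.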
